A study of Mus musculus with 2 samples.

Results

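The miR-30 family comprised 7 of the 2202 microRNA genes in the deposited counts: Mir30a, Mir30b, Mir30c-1, Mir30c-2, Mir30d, Mir30e and Mir30f. The members were the genes that the GENCODE M21 annotation names as miR-30 genes, with Mir30f lying on the strand opposite Mir30e, and the naming rule uses no measured value. The libraries were microRNA libraries from total RNA of the hippocampus of male B6CASTF1/J mice, which are F1 hybrids of the C57BL/6J and CAST/EiJ strains, at 10 days of age. There was 1 group, of 2 biological replicates, each labelled with 3 males and therefore read here as a pool of animals. The replicates carry different animal numbers and a single donor identifier, so the spread between them may in part be technical. No treatment, genotype or age was contrasted, and the questions are which miR-30 genes were present in the tissue and by how much the libraries differed.

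MicroRNAs are cut from hairpin precursors, and either arm of the hairpin, named 5p or 3p, can yield a mature RNA. A mature microRNA finds its target transcripts mainly through its seed, which is read here as bases 2 to 8 from the 5′ end. The miR-30 family is known to be abundant in brain, heart and kidney. Its members, other than the annotated miR-30f, share a seed and so many of their predicted targets. Targets described for the family include transcripts of brain-derived neurotrophic factor and of the autophagy protein Beclin 1 for miR-30a. In endothelium they include those of the Notch ligand Dll4.

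RefSeq (GRCm38.p6) gave mature sequences for 5 of the 7 genes, namely Mir30a, Mir30c-1, Mir30c-2, Mir30e and Mir30f. The 5p arms come first, since they carry the seed that defines the family, and the annotated miR-30f is listed after them. Capitals mark the seed.
miR-30a-5p: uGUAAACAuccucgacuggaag
miR-30e-5p: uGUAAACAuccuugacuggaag
miR-30c-5p: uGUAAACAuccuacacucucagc
miR-30f: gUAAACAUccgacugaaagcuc

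The 5p arms of miR-30a, miR-30c and miR-30e had the seed GUAAACA. Of 1679 mature names in the RefSeq table, which has none for Mir30b or Mir30d, 4 had it, and the remaining one was miR-384-5p. With positions counted from 1 at the 5′ end of miR-30a-5p, miR-30e-5p differed from it by a single substitution, C13U, and miR-30c-5p differed by 5 over the 22 bases compared. The annotated miR-30f begins at what is the second base of its relatives. Its seed is therefore UAAACAU, which no other mature name in the table had.

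The 3p arms fall into 2 pairs with different seeds. They are shown because the miR-30c genes can be told apart by this arm.
miR-30a-3p: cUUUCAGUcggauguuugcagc
miR-30e-3p: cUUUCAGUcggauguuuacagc
miR-30c-1-3p: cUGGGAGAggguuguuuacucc
miR-30c-2-3p: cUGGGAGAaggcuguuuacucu

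The 3p arms of miR-30a and miR-30e shared the seed UUUCAGU and differed by 1 substitution, G18A. Those of miR-30c-1 and miR-30c-2 shared UGGGAGA and differed by 3, which were G9A, U12C and C22U. The 5p arm of miR-30c was held by 2 of 1005 RefSeq hairpins, Mir30c-1 and Mir30c-2, and these hairpins had 28 consecutive bases in common. The RefSeq hairpins had no entry for Mir30b, Mir30d or Mir30f, so runs shared with these genes were not checked. Among the hairpins present, the longest run that Mir30a or Mir30e shared with another was 18 bases. In both cases it was with the other of the pair. The deposited gene counts leave out reads that fit several places. A whole miR-30c-5p read fits both genes, so the levels of Mir30c-1 and Mir30c-2 below are levels of uniquely assigned reads and can lie under the true level.

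The family lies in 3 loci (mm10 positions), each with an abundant and a scarce gene by uniquely assigned reads. On the minus strand of chromosome 15, Mir30d at 68341208-68341289 lies in an exon of the noncoding gene Gm20732. Mir30b follows 3697 bases downstream at 68337415-68337510 and overlaps an exon of the noncoding gene Gm26621 by 16 bases. On the minus strand of chromosome 4, Mir30e at 120772606-120772697 and Mir30c-1 at 120769534-120769622 lie in introns of Nfyc, which encodes a subunit of the transcription factor NF-Y. Mir30f has the same start and end as Mir30e on the plus strand, opposite to Nfyc. On the plus strand of chromosome 1, Mir30a at 23272269-23272339 overlapped no other annotated gene, and Mir30c-2 at 23291701-23291784 lies in an exon of the noncoding gene Gm27028.

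**Figure D1:**
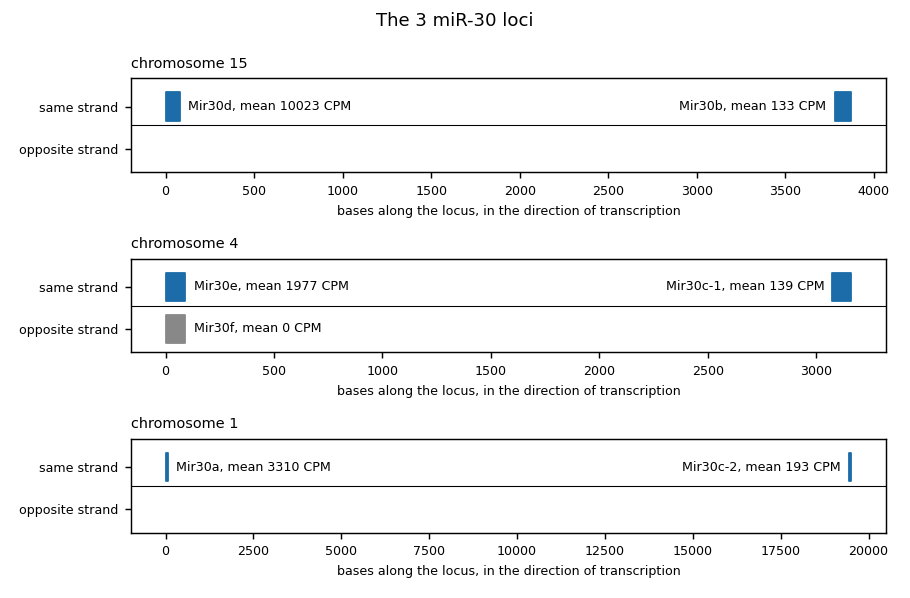
The 3 miR-30 loci, with bases along the locus in the direction of transcription on the x axis and the strand on the y axis. Blue boxes are hairpins and the grey box is Mir30f on the opposite strand. In each locus the upstream gene had the higher mean level, in CPM (counts per 1000000 counts on genes).

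The counts on microRNA genes summed to 4815761 in replicate 1 and to 3495401 in replicate 2. The 7 genes held 80338 counts in replicate 1, or 1.67% (95% exact Clopper-Pearson interval 1.66 to 1.68), and 51974 in replicate 2, or 1.49% (1.47 to 1.50). The mean was 1.58% ± 0.128 (SD, n = 2). These intervals cover counting error only, and they did not overlap. In bulk tissue such as this, fewer cells of a type and less RNA per cell cannot be told apart.

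Mir30d was the most abundant member, with 50776 counts (10544 CPM) in replicate 1 and 33215 counts (9502 CPM) in replicate 2, a mean of 10023 ± 736 CPM (SD, n = 2). It ranked 20 among all genes in replicate 1 and 25 in replicate 2. Mir30a had 16183 counts (3360 CPM) and 11393 counts (3259 CPM), a mean of 3310 ± 71.4 CPM (SD, n = 2). The values of Mir30a nearly coincided, and its rank was 54 in replicate 1 and 55 in replicate 2.

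Mir30e, the Nfyc intron gene whose 5p arm is 1 base from that of Mir30a, had 11368 counts (2361 CPM) in replicate 1 and 5572 counts (1594 CPM) in replicate 2. Its mean was 1977 ± 542 CPM (SD, n = 2), and it varied most of the 6 genes with counts. The coefficient of variation was 27.4% for Mir30e and 2.16% for Mir30a, with the other 4 genes in between.

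The remaining members with counts lay more than an order of magnitude below Mir30a. Mir30c-2 had 855 counts (177.5 CPM) and 732 counts (209.4 CPM), a mean of 193 ± 22.5 CPM (SD, n = 2). Mir30c-1 had 573 counts (119 CPM) and 556 counts (159 CPM), a mean of 139 ± 28.3 CPM (SD, n = 2). Mir30b, the downstream partner of Mir30d, had 583 counts (121 CPM) and 506 counts (145 CPM), a mean of 133 ± 16.8 CPM (SD, n = 2). These 3 genes lay higher in replicate 2, whereas Mir30d, Mir30a and Mir30e lay higher in replicate 1. Mir30f had 0 counts in both libraries, where a limit of 3 counts allows up to 0.623 CPM in replicate 1 and 0.858 CPM in replicate 2.

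**Figure D2:**
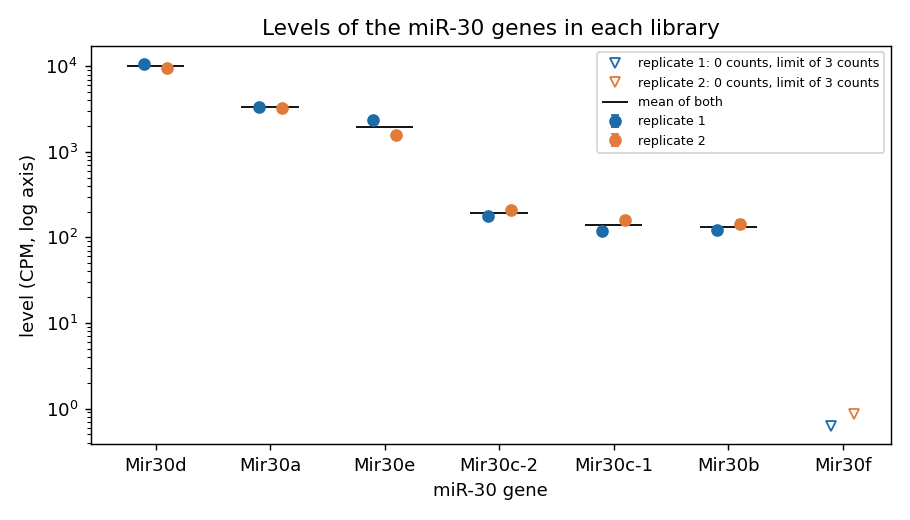
Level of each miR-30 gene in CPM on a log axis, with a point for each library, its 95% counting interval (mostly smaller than the point) and a black line for the mean. Mir30d, Mir30a and Mir30e lie between 1594 and 10544 CPM, and Mir30c-2, Mir30c-1 and Mir30b between 119 and 209.4 CPM. Open triangles mark the limit of 3 counts for Mir30f, which had 0 counts.

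The order of the levels was Mir30d, Mir30a, Mir30e, Mir30c-2, Mir30c-1 and Mir30b. A microRNA read covers a mature arm and not the hairpin, so counts were not divided by length. Divided by hairpin length, as CPM per 100 bases, the means of all 6 genes kept the same order. Mir30d stood 3.03 times above Mir30a in mean CPM and 2.62 times above it per length. Mir30a stood 1.67 times above Mir30e in mean CPM, 1.42 times in replicate 1 and 2.04 times in replicate 2, and 2.17 times per length on average. The values of these neighbours did not overlap between the libraries.

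The gap inside the family lay between Mir30e and Mir30c-2, where the mean CPM differed 10.2 times and the level per length 9.33 times. This gap is in uniquely assigned reads, which leave out whole miR-30c-5p reads. Mir30c-2 stood 1.39 times above Mir30c-1, and their values did not overlap, although the higher value of Mir30c-1 (159 CPM) came close to the lower value of Mir30c-2 (177.5 CPM). Mir30c-1 and Mir30b did not differ beyond their spread. Their means were 6.11 CPM apart with SDs up to 28.3 CPM, and Mir30b was the higher in replicate 1 and Mir30c-1 in replicate 2. Mean levels of Mir30d and Mir30b, the highest and the lowest with counts, differed 75.4 times. Whether the 6 microRNAs were captured equally well in the libraries was not tested.

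Within the family, 3 genes made up nearly all counts of uniquely assigned reads. Mir30d, Mir30a and Mir30e together held 97.5% of miR-30 counts in replicate 1 and 96.5% in replicate 2. The share of Mir30d was 63.2% (95% Clopper-Pearson interval 62.9 to 63.5) in replicate 1 and 63.9% (63.5 to 64.3) in replicate 2, and these intervals overlapped. Mir30a took 20.1% (19.9 to 20.4) in replicate 1 and 21.9% (21.6 to 22.3) in replicate 2. Mir30e took 14.2% (13.9 to 14.4) in replicate 1 and 10.7% (10.5 to 11.0) in replicate 2. Mir30b, Mir30c-1 and Mir30c-2 together took 2.50% and 3.45%. For each of these 5 genes the intervals of the libraries did not overlap, with Mir30e lower and the other 4 higher in replicate 2.

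**Figure D3:**
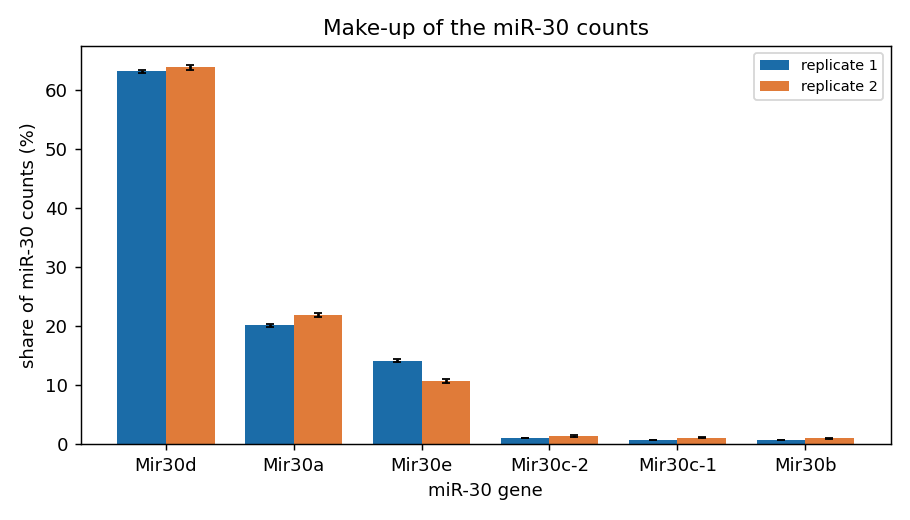
Share of miR-30 counts held by each gene in each library, in percent, with bars from 0 and error bars for the 95% Clopper-Pearson interval. Mir30d holds 63.2% and 63.9%, and the largest difference between the bars of a gene is that of Mir30e, at 14.2% in replicate 1 and 10.7% in replicate 2.

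Neighbouring hairpins can be cut from a common primary transcript, so the genes of each locus were set against each other. On chromosome 15, Mir30d had 87.1 times the counts of Mir30b in replicate 1 (95% interval 80.3 to 94.7, counting error only) and 65.6 times (60.1 to 71.8) in replicate 2. Within the Nfyc introns, Mir30e had 19.8 times the counts of Mir30c-1 (18.2 to 21.6) in replicate 1 and 10.0 times (9.18 to 11.0) in replicate 2. On chromosome 1, where 19361 bases separate the hairpins, Mir30a had 18.9 times the counts of Mir30c-2 (17.7 to 20.3) in replicate 1 and 15.6 times (14.4 to 16.8) in replicate 2.

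In each locus the ratio was lower in replicate 2, and the counting intervals did not overlap. At 2 of the 3 loci the scarce gene was a miR-30c gene, whose 5p reads fit both miR-30c hairpins and are outside these counts. Whether reads of Mir30b or Mir30d fit several places was not checked, as RefSeq gave no hairpin for them. For each counted read there were 0.968 reads that fit several places in replicate 1, and 1.15 in replicate 2. Their part in the lower ratios was not tested. Taken by locus, chromosome 15 held 63.9% and 64.9% of miR-30 counts, chromosome 1 held 21.2% and 23.3%, and chromosome 4 held 14.9% and 11.8%, in replicates 1 and 2.

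Each library has a count for the sense strand, for the other strand and without regard to strand. Mir30e and Mir30f cover the same bases on opposite strands, and their reads were told apart by strand alone. All 11368 reads in replicate 1 and all 5572 in replicate 2 were sense to Mir30e, and 0 were sense to Mir30f. Without regard to strand, both genes had 0 counts. The unstranded column has a total for reads that overlap several genes, which is 0 in the sense column, and it stood at 281108 in replicate 1 and 212068 in replicate 2. The sense reads of Mir30e equal 4.04% of that total in replicate 1 and 2.63% in replicate 2.

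Mir30a, Mir30b, Mir30c-1, Mir30c-2 and Mir30d had 0 counts on the other strand in both libraries and the same counts with and without regard to strand. Annotated miR-30f overlaps the miR-30e-3p arm by 19 bases on the other strand. Among 27 pairs of microRNA genes that overlap on opposite strands and whose higher gene had at least 10 counts, the lower gene was at 0 in 18, and the higher gene was at 0 in the unstranded count in 24. Mir30e ranked 7 among these higher genes by sense counts.

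**Figure D4:**
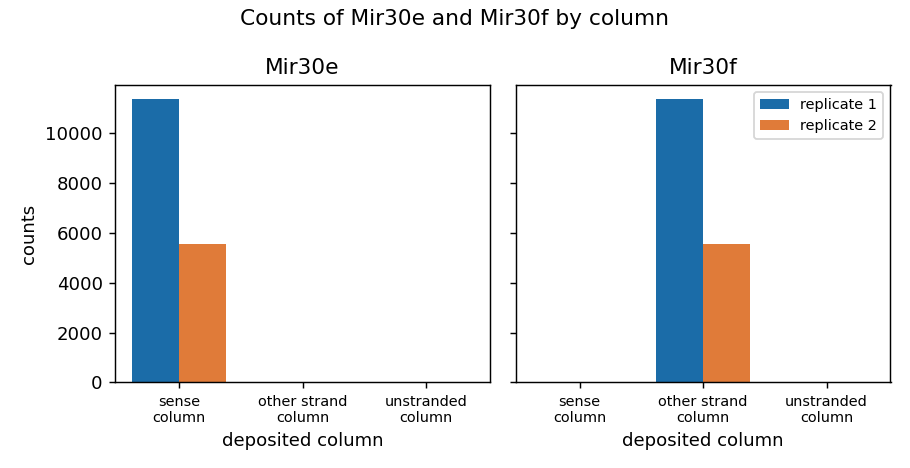
Counts of Mir30e (left) and Mir30f (right) in the sense, other strand and unstranded columns of the deposited files, with a bar for each library. The sense counts of Mir30e, 11368 and 5572, reappear as other-strand counts of Mir30f, and the unstranded bars of both genes are at 0.

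The seed GUAAACA was also present in Mir384 on the X chromosome, a brain microRNA gene that is no miR-30 gene by name and whose miR-384-5p has been linked to long-term potentiation. It was picked for its sequence, which is shown for comparison with the 5p arms above.
miR-384-5p: uGUAAACAauuccuaggcaaugu
Mir384 had 835 counts (173 CPM) in replicate 1 and 624 counts (178.5 CPM) in replicate 2, a mean of 176 ± 3.63 CPM (SD, n = 2). In each library it lay above 3 of the 7 miR-30 genes, namely Mir30b, Mir30c-1 and Mir30f, which had 0 counts. By uniquely assigned reads, its level was in the range of Mir30c-2. The counts of Mir30c-1 and Mir30c-2 leave out whole miR-30c-5p reads, which carry this seed, so their place against Mir384 is not settled. Mir30d exceeded Mir384 in each library by far more than the spread between the libraries.

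To compare the libraries, each of the 540 genes with at least 10 counts was put to a two-sided exact binomial test, with Benjamini-Hochberg adjustment over the 540. A call needed an adjusted p under 0.05 and a log2 ratio of 1 or more in either direction. By this rule 18.7% of tested genes were called, 11.5% as higher and 7.22% as lower in replicate 2, and of the miR-30 genes 0 of 6 tested were, with Mir30f left out for its 0 counts. All 6 passed the adjusted p alone, as 55.7% of tested genes did, and all 6 had an unadjusted exact p under 0.05. The test holds counting error only and compares these libraries, not conditions. The libraries were counted as 2 samples because their labels name them as biological replicates. A test of counting error cannot show whether they are independent.

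The log2 ratio, replicate 2 over replicate 1, was lowest for Mir30e at -0.57 (exact test, adjusted p = 2.14e-131) and next lowest for Mir30d at -0.15 (exact test, adjusted p = 1.05e-48). Mir30a had -0.04. In the other direction, Mir30c-1 had 0.42 (exact test, adjusted p = 3.06e-06), Mir30b 0.26 and Mir30c-2 0.24. The median absolute log2 ratio was 0.25 over the 6 genes and 0.54 over all tested genes, and the median ratio was 0.10 and 0.17. Against the median of all tested genes, Mir30e lay at -0.74, Mir30d at -0.32, Mir30a at -0.22 and Mir30c-1 at 0.25.

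The scaling moved these values without turning the direction of any of the 6. With DESeq2 size factors, where the median of tested genes was 0.0051, Mir30b (0.09, exact test, adjusted p = 0.407) and Mir30c-2 (0.07, exact test, adjusted p = 0.437) no longer passed the adjusted p alone. With TMM sizes Mir30b did not pass it (0.19, exact test, adjusted p = 0.0606). Of all genes called, 61.4% were higher in replicate 2 when scaled by library totals, 53.1% when scaled by TMM and 45.5% by DESeq2 size factors. Across the 427 genes with at least 10 counts in each library, edgeR put the common coefficient of biological variation at 38.6%.

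**Figure D5:**
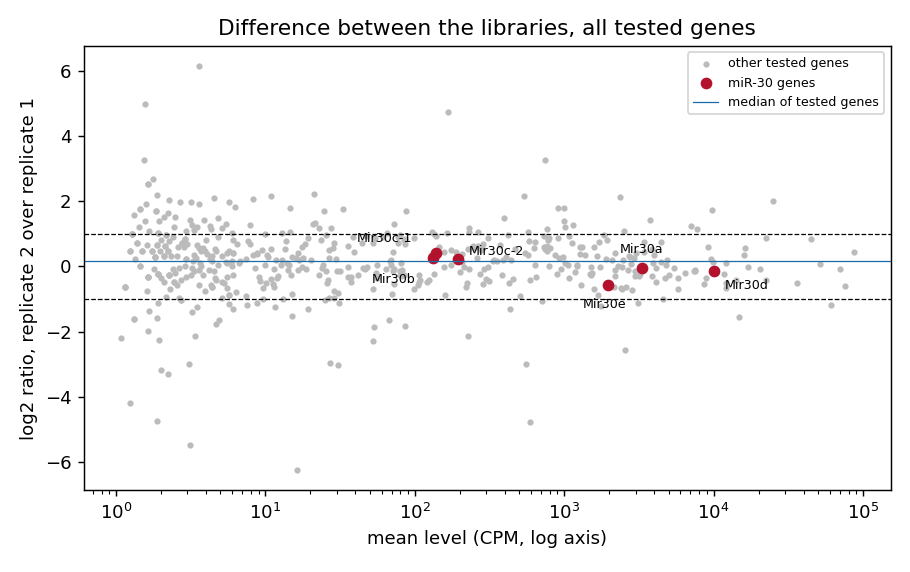
Log2 ratio of replicate 2 over replicate 1 against the mean level in CPM (log axis) for the 540 tested genes in grey, with the 6 tested miR-30 genes in red. Dashed lines mark an absolute log2 ratio of 1 and the blue line the median of tested genes, 0.17. The red points lie between -0.57 (Mir30e) and 0.42 (Mir30c-1), inside the dashed lines.

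Other microRNA families with several genes are given for scale, with no test between families. The miR-181 family of 6 genes took 1.21% ± 0.0194 of counts, the miR-26 family of 3 genes 0.359% ± 0.144 and the miR-29 family of 4 genes 0.127% ± 0.0770 (SD, n = 2 for each). By summed counts, the log2 ratio was -0.17 for miR-30, 0.03 for miR-181, 0.84 for miR-26 and 1.32 for miR-29. Genes called numbered 0 of 6 for miR-181, 1 of 3 for miR-26, 3 of 4 for miR-29 and 0 of 6 tested for miR-30, where 18.7% of all tested genes were called, and at that share counts over so few genes say little about a family. The leading gene held 63.2% and 63.9% of the miR-30 counts, 40.2% and 27.9% for miR-181 (Mir181d), 99.3% and 92.9% for miR-26 (Mir26b) and 75.0% and 79.2% for miR-29 (Mir29a). These are shares of uniquely assigned reads. As for miR-30c, a mature arm lay in several RefSeq hairpins for 2 of the 3 miR-26 genes, 2 of the 4 miR-29 genes and 4 of the 6 miR-181 genes, whose counts can lie under the true level.

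The tissue label was set beside marker microRNAs. The list of neuronal and brain microRNAs held 8.10% of all counts in replicate 1 and 10.5% in replicate 2. Mir139 alone made up 39.3% and 54.6% of that share. All 14 genes were above 0, but only 12 had at least 10 counts over both libraries. Mir124a-1, Mir124a-2, Mir124a-3 and Mir9-2 lay at 3.15 CPM or below in each library. These genes are named as numbered copies, and their counts leave out reads that fit several places. Their values can therefore lie under the true level, which was not tested. Without Mir139 the list held 4.92% and 4.77%. The largest part of that remainder was Mir149, with 25508 CPM in replicate 1 and 19256 CPM in replicate 2. Of 6 liver and striated muscle genes 4 were at 0, and the list took 0.0142% and 0.00641%. The 4 were Mir1a-1, Mir1a-2, Mir133a-1 and Mir133a-2, which are named as numbered copies. Reads that fit several places are left out of the counts. Their part in these zeros was not tested, so the zeros do not bear on the label. Mir122 had 39.5 and 31.5 CPM and Mir206 had 102 and 32.6 CPM in replicates 1 and 2. Markers of other cells moved between the libraries beside the miR-30 values, and their called members are to be read against the 11.5% of tested genes called higher and the 7.22% called lower in replicate 2. Red blood cell microRNAs (3 genes, 0 at 0, 2 called lower in replicate 2) took 0.123% and 0.00764%, and the endothelial Mir126a took 1.49% and 0.930%, both lower in replicate 2. Of the miR-30 genes, Mir30e, Mir30d and Mir30a were lower there and Mir30b, Mir30c-1 and Mir30c-2 higher. Choroid plexus and ciliated cell microRNAs (7 genes, 0 at 0, 3 called higher) took 0.258% and 0.533%. Oligodendrocyte microRNAs (4 genes, 1 at 0, 0 called) took 0.104% and 0.174%. Their members were split, with Mir219a-1 lower in replicate 2 (log2 ratio -0.97) and Mir219a-2 (0.80) and Mir338 (0.76) higher. Mir219b, the gene at 0, overlaps Mir219a-2 on the opposite strand. The list labelled myeloid (4 genes, 0 at 0, 2 called higher) took 0.0495% and 0.0906%. Mir150 made up 75.2% and 85.6% of it, and without Mir150 it held 0.0123% and 0.0130%. Mural cell microRNAs (2 genes, 0 at 0, 1 called higher) took 0.396% and 0.439%. The part of these cells in the miR-30 differences was not tested.

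The genes with levels most like those of Mir30d were found by the Euclidean distance in log2(CPM + 1) over the 2 libraries, which at this number of libraries measures a like level rather than a like pattern. The nearest 5 were Mir541 (distance 0.211), Mir191 (0.278), Mir411 (0.313), Mir652 (0.326) and Mir23b (0.422). Their mean levels ran from 8822 CPM for Mir411 to 12087 CPM for Mir23b. None of them is a miR-30 gene.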

How the data were processed

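The values are raw read counts of microRNA genes as deposited, with 1 table for each library that has an unstranded column and a column for each strand. The genome was mm10 and the annotation GENCODE M21, per the file notes deposited with the counts. The aligner and counter are not named in these sources. Of the stranded columns, the one with the larger total was taken as sense. Library sizes exclude the 4 summary lines. Of all reads, 37.7% in replicate 1 and 39.8% in replicate 2 fitted several places, and 17.7% and 19.5% were unmapped.

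CPM was computed from the counts. Log2 ratios had 0.5 counts added. The test, its filter of 10 counts and the Benjamini-Hochberg adjustment are given with the results, and edgeR and DESeq2 gave scaling factors and the coefficient of variation. The members follow a rule on names, but the family, the lists and the tests were chosen with earlier results of these data known. The shares without Mir139 and without Mir150 were added after seeing the data. Named genes were all members, the 5 genes nearest to the most abundant member, and others where a result turned on them. Sequences came from RefSeq (GRCm38.p6). The tools were edgeR 4.0.16 and DESeq2 1.42.0 in R 4.3.3, and SciPy 1.17.1 in Python 3.11.15.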

Additional observations from a re-analysis of the deposited data

Results flagged for a closer look

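Mir30f had 11368 counts in replicate 1 and 5572 in replicate 2 in the stranded column that the comparisons did not use, above the limit of 3 counts. These numbers equal the sense counts of Mir30e, whose start and end Mir30f shares on the opposite strand. In the sense column Mir30f had 0 counts in both libraries.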

How the results depend on the processing

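The share of the family, 1.58% of counts on genes, was 0.582% of all reads and 0.770% of counts on genes plus reads that fit several places, as the larger denominators make it. Replicate 1 alone gave 1.67% and replicate 2 alone 1.49%. Without a minimum of the ratio, 6 miR-30 genes and 301 genes in all were called, in place of 0 and 101, and with a minimum of 50 counts, which leaves 359 genes tested, 67 were called. Mir30f averaged 8470 counts in the other stranded column and 0 in the sense column. In the unstranded count the mean of Mir30e was 0 CPM and that of Mir30a 3519 CPM. These were the exceptions among 18 settings of scaling or strand for the levels of the 6 genes with counts, of which 16 moved the mean by no more than the SD. All 29 alternative settings for log2 ratios kept their direction, and no miR-30 gene was called in them. Leaving out a replicate gives no ratio, and no paired analysis was possible because the labels give 1 group. Depth limits Mir30f to the levels that 3 counts allow.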
